A study of Mus musculus with 2 samples.

Results

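Chromatin accessibility at 10 genes of the network that keeps mouse embryonic stem (ES) cells pluripotent (Pou5f1, Nanog, Zfp42, Esrrb, Klf4, Klf2, Tfcp2l1, Tbx3, Prdm14 and Dppa3) was measured in cells differentiated towards motor neuron progenitors. A genomic interval of accessible chromatin was assigned to one of these genes if its own transcription start site (TSS) was the nearest among protein-coding genes. This gave 146 of the 119502 intervals of the count table, spread over all 10 genes. The nearest TSS is a rule of position, and an interval assigned by it need not act on that gene.

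The cells came from the mouse Olig2-2A-mKate2 ES line, in which Olig2, a gene that marks progenitors of motor neurons, is followed by the red fluorescent protein mKate2. Live mKate2-positive cells were sorted at day 5 of differentiation in the presence of SAG, which activates Sonic hedgehog signalling, and of retinoic acid, both at 100 nM. Tn5 transposase, which inserts adapters into open chromatin (ATAC-seq), was applied to 50000 cells per reaction, giving 1 group of 2 replicates with 31876165 and 31672240 counts. The live cells served as a standard for a method on fixed cells. No ES cell or other control sample was analysed here, so levels are described within these cells and no loss or gain is measured. As limits of the model, the reporter is also carried by newly born motor neurons and by some cells that make NKX2.2, and the ES cells had been kept on feeder fibroblasts. Neither the labels nor the methods state whether the replicates were separate differentiations, so their spread may be technical.

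In naive ES cells, POU5F1 (OCT4) with SOX2 binds a composite DNA element at regulatory regions such as those of Nanog and of Pou5f1 itself. NANOG, ESRRB, TFCP2L1, KLF2, KLF4 and TBX3 reinforce one another downstream of the cytokine LIF and of inhibition of differentiation signals, while PRDM14 restrains DNA methylation. Zfp42 (REX1) and Dppa3 (STELLA) are widely used markers of the naive state. When cells differentiate towards neural fates, the core of this circuit is shut down, yet Klf2, Klf4, Esrrb, Tfcp2l1 and Tbx3 have further roles in other tissues.

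The sequences below carry the elements discussed with the values. The Nanog and Pou5f1 promoters held few CpG dinucleotides and had no accessible interval over the TSS. Those of Klf2 and Klf4 were CpG-rich and had one. CpG content did not fully separate genes with and without a TSS interval. Over the whole RefSeq promoter, Esrrb held 7 CpG and Zfp42 held 11, and both had a TSS interval. Pou5f1, without one, also held 11. The promoters of Pou5f1, Nanog, Klf2 and Klf4 are printed in the sense direction from the RefSeq promoter table (GRCm38.p6), with CpG in capitals. Each is the 220 bases that end 31 bases before the RefSeq start. In Nanog, capitals also mark the OCT-SOX composite, between 74 and 62 bases before the start on the reverse strand. The positions are chr17:35505782-35506001 (plus strand) for Pou5f1, chr6:122707239-122707458 (plus) for Nanog, chr8:72318812-72319031 (plus) for Klf2 and chr4:55532506-55532725 (minus) for Klf4.
Pou5f1 promoter: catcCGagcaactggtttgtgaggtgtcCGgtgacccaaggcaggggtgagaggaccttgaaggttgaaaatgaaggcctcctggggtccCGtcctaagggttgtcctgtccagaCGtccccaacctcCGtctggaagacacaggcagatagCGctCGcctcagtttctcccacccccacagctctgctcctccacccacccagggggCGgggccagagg
Nanog promoter: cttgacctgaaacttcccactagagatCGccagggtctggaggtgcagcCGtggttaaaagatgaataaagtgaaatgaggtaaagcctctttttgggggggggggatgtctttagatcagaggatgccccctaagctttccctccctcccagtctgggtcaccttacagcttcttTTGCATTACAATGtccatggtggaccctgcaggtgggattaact
Klf2 promoter: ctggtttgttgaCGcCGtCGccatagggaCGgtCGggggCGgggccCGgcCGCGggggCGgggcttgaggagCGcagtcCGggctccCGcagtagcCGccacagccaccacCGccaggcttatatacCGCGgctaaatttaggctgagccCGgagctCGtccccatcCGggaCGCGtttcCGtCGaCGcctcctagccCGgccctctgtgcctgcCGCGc
Klf4 promoter: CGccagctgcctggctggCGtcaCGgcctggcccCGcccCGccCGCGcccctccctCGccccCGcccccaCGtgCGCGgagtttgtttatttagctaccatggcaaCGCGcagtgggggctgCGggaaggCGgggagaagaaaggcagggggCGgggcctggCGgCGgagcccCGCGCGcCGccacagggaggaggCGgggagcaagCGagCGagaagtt

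The next sequences are plus-strand sequence of GRCm38 (mm10) at accessible intervals, with searched motifs in capitals. The Pou5f1 interval at chr17:35503940-35504198 is shown whole because it was the only one of the 146 whose centre held the OCT-SOX composite, which overlaps a CAGATG E-box in the capital run. The centre of the Zfp42 TSS interval, chr8:43307058-43307357, is shown for its octamer ATGCAAAT. The Klf4 interval downstream of the gene, centre chr4:55514787-55515086, was the densest interval away from a TSS and held the KLF motif GGGNGTGGC on both strands. The Esrrb upstream interval, centre chr12:86324270-86324569, was the next densest and held it once, on the reverse strand.
Pou5f1 upstream interval: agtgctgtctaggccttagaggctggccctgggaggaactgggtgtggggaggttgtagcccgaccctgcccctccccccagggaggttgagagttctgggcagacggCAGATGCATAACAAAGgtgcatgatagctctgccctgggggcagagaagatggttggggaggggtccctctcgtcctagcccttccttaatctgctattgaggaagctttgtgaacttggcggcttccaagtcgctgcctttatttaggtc
Zfp42 TSS interval: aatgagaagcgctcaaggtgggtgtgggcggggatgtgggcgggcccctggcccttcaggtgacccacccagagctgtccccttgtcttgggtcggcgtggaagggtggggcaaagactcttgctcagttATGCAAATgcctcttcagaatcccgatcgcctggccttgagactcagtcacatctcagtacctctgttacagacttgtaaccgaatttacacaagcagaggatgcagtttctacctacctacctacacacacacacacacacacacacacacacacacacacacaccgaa
Klf4 downstream interval: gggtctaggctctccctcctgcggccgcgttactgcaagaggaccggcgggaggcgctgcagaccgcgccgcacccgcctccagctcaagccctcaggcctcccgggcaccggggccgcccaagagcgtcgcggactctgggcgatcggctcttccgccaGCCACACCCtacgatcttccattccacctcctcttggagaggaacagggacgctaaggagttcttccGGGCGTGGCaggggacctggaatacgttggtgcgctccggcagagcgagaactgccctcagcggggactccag
Esrrb upstream interval: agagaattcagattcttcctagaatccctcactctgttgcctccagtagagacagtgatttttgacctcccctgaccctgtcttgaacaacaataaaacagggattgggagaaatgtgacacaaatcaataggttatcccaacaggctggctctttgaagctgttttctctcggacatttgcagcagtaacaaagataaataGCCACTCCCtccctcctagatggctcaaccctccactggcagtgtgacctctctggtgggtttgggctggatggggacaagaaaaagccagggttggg

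Accessibility is given as raw counts in each library and as density, the normalised count (counts divided by DESeq2 size factors) per kb of interval. Both libraries had nearly equal size factors. A TSS interval was present at 61.5% of all protein-coding genes. Among marker genes of the sorted cells, all 7 progenitor genes (Olig2, Sox2, Pax6, Nkx6-1, Irx3, Sox1 and Nes) had one, at a density of 187 (Pax6) to 1498, as did 4 of 5 neuronal genes (Mnx1, Isl1, Tubb3 and Elavl3, but not Chat). Nkx2-2 and Nkx2-9 of the p3 domain had one and Foxa2 did not. The nearest Foxa2 interval came within 0.277 kb of its TSS, and 22 of its 41 intervals had a mean normalised count over 100. Of the other markers, 3 of 4 neuromesodermal genes (T, Cdx2 and Nkx1-2, 204 to 294) and 3 of 5 fibroblast genes (Thy1, Twist2 and Col1a2, 123 to 291) had a TSS interval. Tbx6 and Col1a1 had none, although an interval came within 1 kb of each TSS. These bulk libraries cannot tell a few strongly open cells from weak opening in many, and the part of such cells in the levels below was not tested.

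At the TSS, the 10 genes ranged from no interval to a density above that of most genes with one. An interval overlapped the TSS of 7 genes, Tbx3, Klf2, Tfcp2l1, Klf4, Zfp42, Prdm14 and Esrrb, and none overlapped that of Pou5f1, Nanog or Dppa3. Over all 21951 protein-coding genes 13500 had a TSS interval (61.5%), so the count of 7 of 10 is near the background. The median density over the 7 genes was 565, against 884 over all genes with a TSS interval, and 5 of the 7 were under that median. Only Tbx3 and Klf2 were above it.

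**Figure D1:**
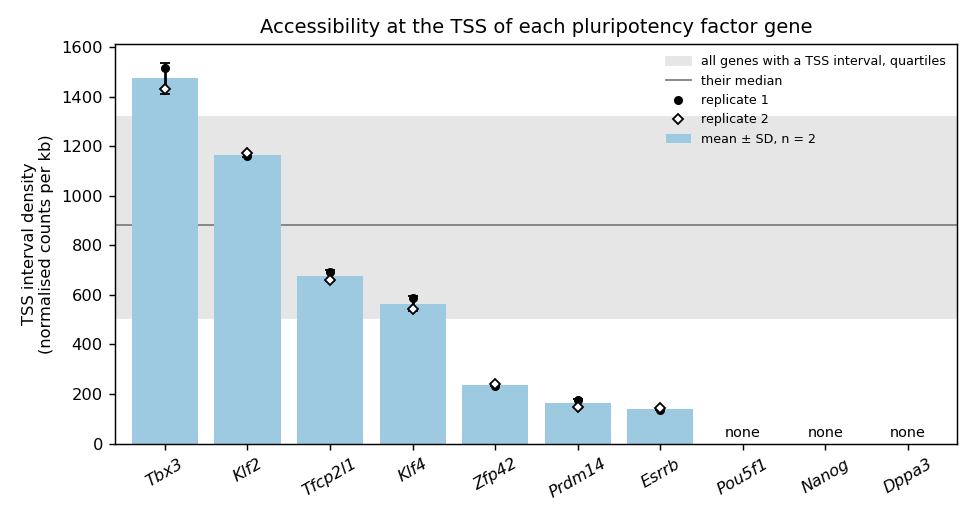
Density of the TSS interval (normalised counts per kb) of each of the 10 genes, with bars for the mean, error bars for the SD of the 2 libraries and points for each library. The grey band spans the quartiles (505 to 1318) and the grey line the median (884) of all genes with a TSS interval. Tbx3 and Klf2 lie above the line, Zfp42, Prdm14 and Esrrb below the band, and Pou5f1, Nanog and Dppa3 have no TSS interval.

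Tbx3, a T-box factor of the naive circuit that also acts in limb and heart, had the densest TSS interval, chr5:119669992-119671100. It held 1682 counts in replicate 1 and 1586 in replicate 2, a density of 1473 ± 62.1 (SD, n = 2), above that of 81.2% of genes with a TSS interval. The interval also lies within the antisense gene Tbx3os1. Klf2, a zinc finger factor of pluripotency and of endothelium, followed with 2056 and 2079 counts at chr8:72318601-72320374 and a density of 1165 ± 8.49 (SD, n = 2). Klf2 lies on chromosome 8, where the median density of TSS intervals was 1.41 times that of the other autosomes. Among genes of chromosome 8 alone, Klf2 exceeded 45.6%, against 67.6% of genes genome-wide.

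Tfcp2l1, a grainyhead-like factor, had 674 and 644 counts at its TSS (chr1:118627601-118628573), a density of 677 ± 22.2 (SD, n = 2). Klf4, one of the factors used to reprogram somatic cells, had 1943 and 1808 counts, but over an interval of 3320 bp (chr4:55530096-55533415), so that its density was 565 ± 29.1 (SD, n = 2). By counts per interval Klf4 was therefore above Tbx3 and Tfcp2l1, and by density below both. Tfcp2l1 exceeded 36.0% and Klf4 28.8% of genes with a TSS interval.

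The remaining 3 TSS intervals were weak. Zfp42, the naive marker, had 132 and 136 counts at chr8:43306925-43307489 and a density of 237 ± 4.87 (SD, n = 2). Prdm14 had 394 and 331 counts over 2242 bp (chr1:13125066-13127307), a density of 162 ± 20.0 (SD, n = 2). Esrrb, an orphan nuclear receptor, had 92 and 96 counts at the 5' end of the gene (chr12:86360770-86361447), a density of 139 ± 4.09 (SD, n = 2). Zfp42 exceeded 10.4%, Prdm14 6.52% and Esrrb 5.47% of genes with a TSS interval, and Zfp42 exceeded 6.39% of those on chromosome 8.

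In the order Tbx3, Klf2, Tfcp2l1, Klf4, Zfp42, Prdm14 and Esrrb, the lower library of each gene stood above the higher library of the next at every step. The margin was smallest between Prdm14 and Esrrb, whose nearest libraries were at 148 and 142, and as a ratio of means the largest step was 2.38-fold, between Klf4 and Zfp42. With 2 libraries and different interval lengths, these steps were not tested.

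Pou5f1, the central factor of pluripotency, had the fewest counts of all 10 loci, with 4 intervals that summed to 225 and 208 normalised counts. Its territory, the bases nearer to its TSS than to another protein-coding TSS, was also the smallest, at 23.4 kb. This territory held 17.1 intervals per 100 kb, against 5.93 over the territories of all 10 genes. The nearest interval lay 1.82 kb upstream of the TSS, where the distal enhancer used in naive cells is known to lie, and is the one printed with the OCT-SOX composite. It held 23 counts in replicate 1 (exact Poisson 95% interval 14.6 to 34.5) and 19 in replicate 2 (11.4 to 29.7), a density of 81.1 ± 11.0 (SD, n = 2), above 26.8% of distal intervals (those over no protein-coding TSS). Both counts were low and the libraries overlapped within counting error. A second interval 3.40 kb upstream held 30 and 33 counts, and one over coding exons 3.04 kb downstream of the TSS held 68 and 49.

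The strongest Pou5f1 interval, 14.9 kb upstream, held 104 and 107 counts at a density of 128 ± 2.49 (SD, n = 2), near the middle of all distal intervals. Its neighbours differed from one another: the TSS of Tcf19, next on one side, had a density of 866 ± 17.9 (SD, n = 2) and that of H2-Q10, on the other, 153 ± 23.0 (SD, n = 2). The lack of a TSS interval at Pou5f1 thus stood beside an open TSS within its own neighbourhood.

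Nanog, the homeodomain factor of naive pluripotency, and Dppa3, a maternal-effect gene that guards DNA methylation in the early embryo, are neighbours on chromosome 6, and neither had a TSS interval. The nearest Nanog interval, chr6:122702304-122703619, ended 3.87 kb upstream, in the region of its known upstream enhancer. It held 330 and 318 counts, a density of 246 ± 6.59 (SD, n = 2), above 78.8% of distal intervals. Nanog thus had a well-filled upstream interval and no interval over a promoter that carries the composite.

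Of the 9 Nanog intervals, 6 had a mean normalised count over 100 (66.7%, against 32.4% of all distal intervals), and 2 of these lay within the neighbouring gene Slc2a3. A pair 39.4 and 37.0 kb upstream held 127 and 136 counts and 213 and 240 counts. The densest, 34.2 kb downstream with 591 and 617 counts and a density of 338 ± 10.1 (SD, n = 2), overlapped a transcript start of the glucose transporter gene Slc2a3, whose gene record starts farther away at a TSS interval of density 562 ± 7.60 (SD, n = 2). When the start of every transcript of protein-coding genes was used, the sum over the Nanog locus fell from 1740 to 906 normalised counts.

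Dppa3 had 3 intervals, all downstream. The nearest began 6.95 kb from the TSS and held 113 and 118 counts, a density of 228 ± 6.86 (SD, n = 2). The others lay 33.2 kb (183 and 175 counts) and 36.5 kb (32 and 33 counts) from the Dppa3 TSS, between it and Nanog. On the far side of Dppa3, Gdf3, a TGF-beta family gene also active in pluripotent cells, had a weak TSS interval at a density of 131 ± 9.58 (SD, n = 2).

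**Figure D2:**
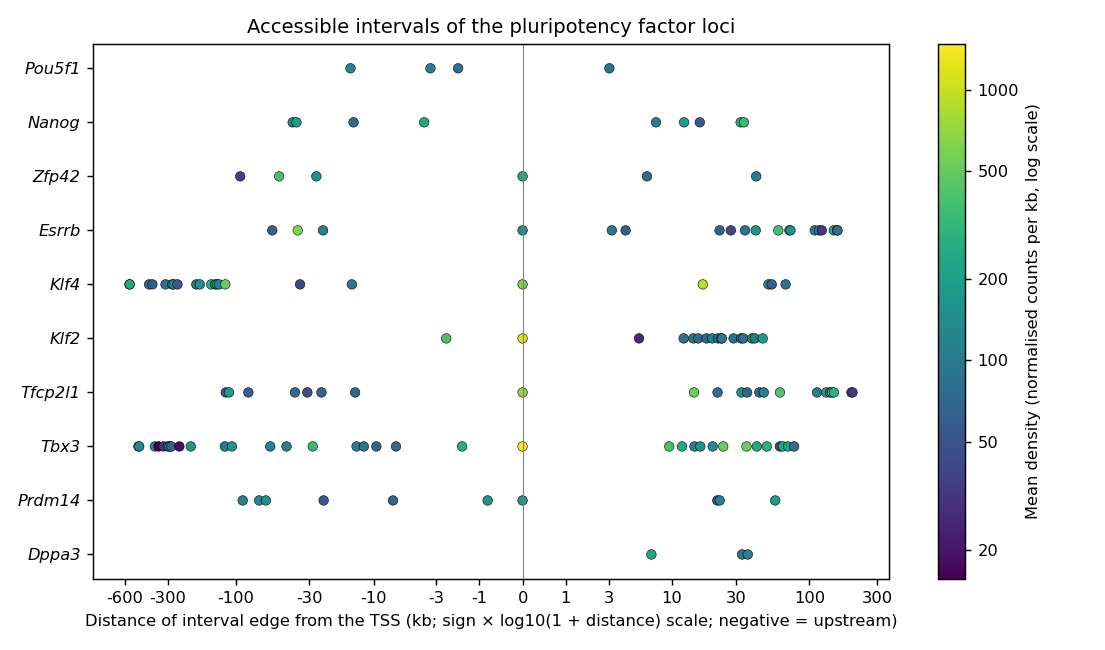
Position of the 146 intervals relative to the TSS of their gene in kb (upstream negative, sign times log10 of 1 plus distance), coloured by mean density in normalised counts per kb on a log scale. Each row is 1 gene. Pou5f1, Nanog and Dppa3 have no point at 0, and the brightest points away from 0 belong to Klf4, Esrrb, Tfcp2l1 and Tbx3.

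Away from the TSS, the densest intervals were at Klf4, Esrrb, Tfcp2l1 and Tbx3. These genes had the 6 of 139 distal intervals (4.32%) that fell in the densest 10% of all distal intervals. The 139 distal intervals of the 10 genes included 46 with a mean normalised count over 100 (33.1%, Wilson 95% interval 25.8 to 41.3%), against 32.4% of all distal intervals. Including TSS intervals, 52 of 146 passed that limit (35.6%) against 38.8% of the whole table. Both shares were close to the background. The median density of the 146 was 106 in replicate 1 and 113 in replicate 2, against 137 and 140 over all intervals. TSS intervals made up 4.79% of the 146 but 10.2% of all. Over distal intervals alone the medians were 101 and 112, against 125 and 127 over all distal intervals. The 2 intervals just under the limit had means of 96.5 and 99.0, and the 2 just over it 104 and 105.

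The densest distal interval lay 17.2 kb downstream of the Klf4 TSS (chr4:55514576-55515296), in no annotated gene. It held 635 and 617 counts, a density of 868 ± 18.2 (SD, n = 2), above that of the Klf4 TSS interval itself and above 96.8% of distal intervals. The printed centre has 28 CpG in 300 bases, a GC content of 68.3%, against a median of 48.3% at all distal intervals. A further interval 118 kb upstream held 680 and 598 counts at a density of 490. The TSS of Klf4 owns a territory of 695 kb, the bases nearer to it than to another protein-coding TSS, and 17 of its 21 other intervals were upstream in it. With the TSSs of all annotated genes, the Klf4 locus summed to 1910 normalised counts, of which 1876 were in its TSS interval, so its dense distal intervals were assigned to other annotated genes. Rad23b, the neighbour on one side, had a TSS density of 1426 ± 34.5 and Gm26657, on the other, 60.6 ± 1.34 (SD, n = 2).

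At Esrrb, the 5' end was weak and both its upstream region and an internal start were stronger. The interval 36.3 kb upstream (chr12:86323973-86324865) held 535 and 560 counts, a density of 613 ± 19.4 (SD, n = 2), above 94.0% of distal intervals. The internal interval, 60.2 kb into the gene (chr12:86421297-86422884), held 625 and 602 counts at a density of 386 ± 10.5 (SD, n = 2). It overlaps a coding exon and the annotated start of a shorter Esrrb transcript, so the weak gene start does not describe every Esrrb promoter. The neighbouring genes Gpatch2l (1480 ± 14.8) and Vash1 (1117 ± 18.3, SD, n = 2) had denser TSS intervals than Esrrb. Of the 18 Esrrb intervals other than the TSS, 15 lay within the gene. Mean normalised counts were over 100 at 5 of the 18, against 32.4% of all distal intervals, and 100 or less at 13.

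Tfcp2l1 had an intronic interval 14.8 kb downstream of its TSS with 470 and 487 counts, a density of 524. An intergenic interval 61.8 kb downstream held 198 and 233 counts at 420, and its centre had the SOX motif ACAATGG. All 7 distal Tfcp2l1 intervals with mean normalised counts over 100 were on the downstream side. The upstream 7 were lower than that limit, and 6 of them lay within Clasp1, whose TSS had a density of 733 ± 16.4 (SD, n = 2). Gli2, the next gene on the other side and a mediator of Sonic hedgehog signalling, had a TSS density of 922 ± 4.25 (SD, n = 2).

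Tbx3 had the most intervals, 34, of which 14 had a mean normalised count over 100 (41.2%, against 38.8% of the whole table). At least as many intervals were assigned to 334 genes in all, and the Tbx3 territory was 636 kb, against a median of 47.5 kb. Downstream of the gene, an interval at 24.2 kb held 248 and 245 counts (density 518) and one at 35.7 kb held 479 and 424 (density 520), the latter with the SOX motif. Within the gene, the interval at 9.58 kb over a coding exon held 412 and 306 counts. Upstream, 28.2 kb from the TSS and within the antisense gene Tbx3os1, an interval held 370 and 332 counts at a density of 331. Med13l, the neighbour on one side, had a TSS density of 595 ± 34.9 (SD, n = 2), and Tbx5, a T-box gene of heart and forelimb on the other side, had no TSS interval.

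Klf2 was the reverse case, with 68.5% of its summed normalised counts in the TSS interval. An interval 2.42 kb upstream held 174 and 191 counts at a density of 406, and the 15 downstream ones had lower densities, 9 of them inside the neighbouring gene Eps15l1 (TSS density 1567 ± 21.1, SD, n = 2). Gm10282, the neighbour on the other side, had no TSS interval. With 17 intervals in a territory of 58.1 kb, Klf2 had 29.3 intervals per 100 kb, the highest of the 10 genes, against 5.93 over all their territories and 4.55 over those of all genes.

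At Zfp42, 2 of 6 intervals had a mean normalised count over 100 (33.3%), and at Prdm14 3 of 10 (30%). Both were near the 35.6% over the 10 genes and the 38.8% of the whole table. The densest at Zfp42 lay 49.2 kb upstream, with 251 and 245 counts at a density of 385, above that of its own TSS. Neither neighbouring gene, Triml2 or Adam26b, had a TSS interval. The densest distal interval of Prdm14 was at 190, although its neighbours Slco5a1 (820 ± 0.202, SD, n = 2) and Ncoa2 (1733 ± 8.04, SD, n = 2) had open TSSs. Of its distal intervals, 1 began 0.754 kb upstream with 144 and 153 counts, and 5 of the 9 lay inside other genes.

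Summed over each locus, normalised counts spanned from 217 ± 12.1 at Pou5f1 and 327 ± 1.60 at Dppa3 to 4376 ± 127 at Klf4 and 5360 ± 220 at Tbx3 (SD, n = 2). Between these came Zfp42 with 519 ± 8.08, Prdm14 with 972 ± 26.7, Nanog with 1740 ± 11.0, Esrrb with 2130 ± 58.9, Tfcp2l1 with 2542 ± 33.9 and Klf2 with 3019 ± 4.57. Such sums grow with the territory of a gene, which ran from 23.4 kb at Pou5f1 to 695 kb at Klf4, and with how many intervals were called in it. The sums and their order also depend on the assignment: with the TSSs of all annotated genes, noncoding ones included, they were 1974 at Tbx3, 1910 at Klf4, 1239 at Esrrb, 1043 at Nanog, 780 at Tfcp2l1 and 260.5 at Zfp42, and Klf2, still at 3019, was the highest.

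No difference between the libraries passed the test at any of the 146 intervals. In two-sided exact binomial tests of the counts in replicate 1 and 2, with Benjamini-Hochberg adjustment over the whole table, 0 of 146 had an adjusted p under 0.01, as did 0.0% of all intervals. At an unadjusted p under 0.05 there were 11 (7.53%), against 8.39% of the whole table. Over intervals with at least 20 counts, the squared difference was 1.29 times that of counting alone at the 142 members and 1.37 times at all.

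The largest difference at a mean normalised count over 100 was at Tbx3, 9.58 kb downstream of the TSS, where 412 and 306 counts gave a log2 ratio of replicate 2 to replicate 1 of -0.43 (exact binomial test, adjusted p = 0.118). The next were the Tfcp2l1 interval at 149 kb, with 231 and 189 counts (log2 ratio -0.29, exact binomial adjusted p = 0.572), and the Prdm14 TSS interval (log2 ratio -0.25, exact binomial adjusted p = 0.484). All 3 were lower in replicate 2. These tests compare 2 libraries and not conditions.

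**Figure D3:**
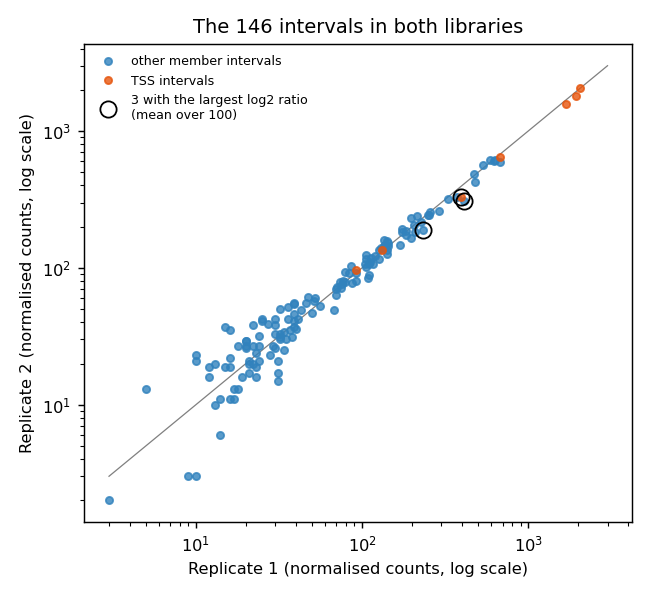
Normalised counts of the 146 intervals in replicate 1 (horizontal) and replicate 2 (vertical), both on log scales, with TSS intervals in orange, others in blue and equality as a line. The circled points are the 3 with the largest log2 ratio among means over 100, and the scatter is wider at the weak end.

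The presence of a TSS interval went with CpG content over all genes. In the RefSeq promoters (300 bases, 250 before and 50 after the start) of 16522 matched genes, 12.9% of those with an observed over expected CpG ratio up to 0.25 had a TSS interval, 46.5% between 0.25 and 0.5, 86.9% between 0.5 and 0.75, and 93.4% between 0.75 and 1. Of the 10 genes, 7 matched a promoter, all but Tbx3, Prdm14 and Dppa3. Nanog had a ratio of 0.19 and Pou5f1 of 0.37, and both lacked an interval. Esrrb (0.27) and Zfp42 (0.44) were in the same low range with weak TSS intervals, and Tfcp2l1 (0.66), Klf2 (0.89) and Klf4 (0.97) were CpG-rich with stronger ones.

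**Figure D4:**
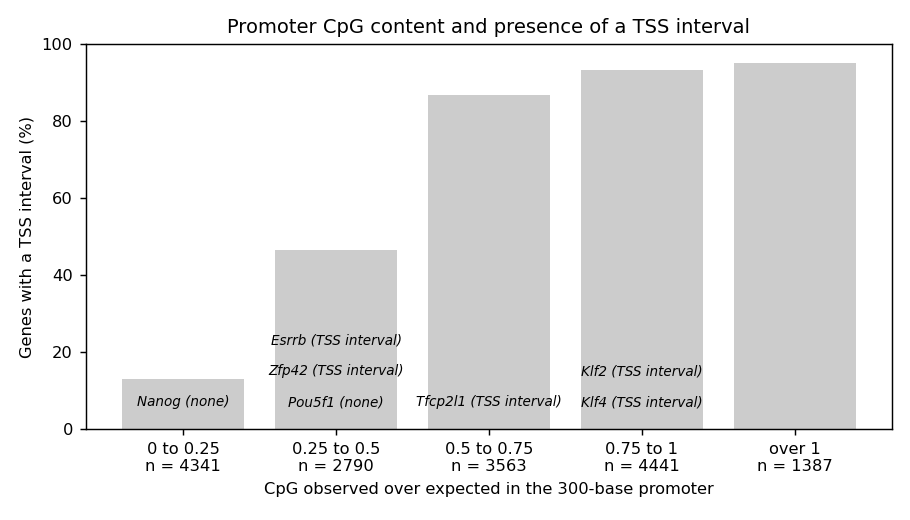
Share of genes with a TSS interval (%) in classes of observed over expected CpG ratio of the 300-base promoter, with the number of genes under each bar. The 7 matched genes are written in their class with whether they had a TSS interval. The share rises from 12.9% in the lowest class to 93.4% between 0.75 and 1, and the genes without an interval are in the lowest 2 classes.

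The OCT-SOX composite was found in 27 of 16522 promoters (0.163%), that of Nanog among them, and Nanog had no TSS interval. A longer form of the composite with 2 further bases, searched first, was in 2 promoters and not in that of Nanog. The octamer ATGCAAAT was found in 1.63% of promoters, and of the 7 matched genes in Zfp42 alone. The SOX motif was in the Esrrb promoter (2.84% of all promoters) and the KLF motif in that of Tfcp2l1 (7.10% of all). A motif match is a description of the letters and does not show that a factor was bound.

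At the centres of the accessible intervals, motifs of the pluripotency factors were in few intervals, as they were in the whole table. In the 300 bases around the centre, on either strand, 2 of 146 intervals held the octamer (1.37%, against 1.91% of all intervals), at the Zfp42 TSS and 1.65 kb upstream of Tbx3. Another 2 held TCAAGGTCA, the ESRRB motif (1.37% against 0.459%), in Esrrb and downstream of Klf2, both at mean normalised counts under 100. The composite, which shares letters with the octamer and SOX motifs, was at the Pou5f1 interval alone (0.685% against 0.0862%), and its longer form at none of the 146 (against 0.0251%). The KLF motif was in 7 (4.79% against 2.35%), among them the strong distal intervals of Klf4 and Esrrb and the Tfcp2l1 TSS.

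For motifs of families that also act in neural progenitors, the E-box and homeodomain shares of the 146 were near those of all intervals. ACAATGG, bound by SOX factors, was in 16 of 146 (11.0%, against 7.13% of all intervals), and in 10 of the 52 with mean normalised counts over 100 (19.2%, against 6.06% of all such intervals). CAGCTG was in 36 (24.7% against 20.4%), CAGATG in 37 (25.3% against 24.8%) and the homeodomain core TAATTA in 11 (7.53% against 6.47%). Among the 52, CAGCTG was in 15 (28.8%, against 18.7% of all such intervals), CAGATG in 12 (23.1% against 19.0%) and TAATTA in 4 (7.69% against 5.30%). The GLI motif TGGGTGGTC was in 0 of 146, against 0.432% of all. The CTCF core was in 7 (4.79% against 2.57%). Of these, 6 were among the 52 strong ones (11.5%, against 2.58% of all such intervals), at Nanog, Esrrb, Tfcp2l1, Tbx3 and Dppa3. These shares rest on few intervals and were not tested.

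**Figure D5:**
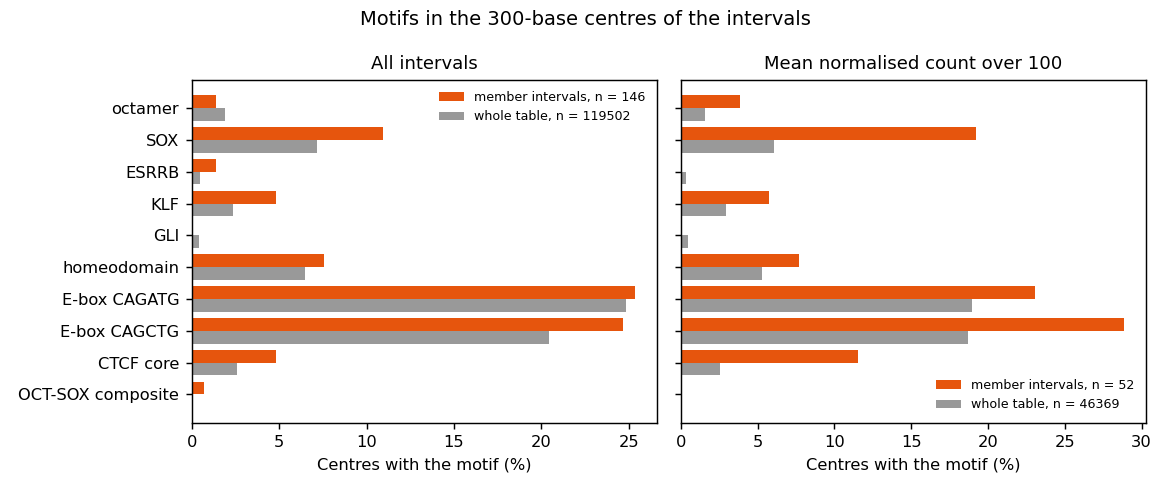
Share of interval centres (300 bases, both strands) that held each motif, in % on the horizontal axis, for the intervals of the 10 genes (orange) and the whole table (grey). The left panel takes all intervals and the right panel those with a mean normalised count over 100, where SOX (19.2% against 6.06%) stands farthest from the whole table in points.

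Of 18 further genes of pluripotency, 8 had a TSS interval (44.4%, against 61.5% of all genes), among them Klf5 with a density of 1610 ± 45.2, Lin28a with 687 ± 26.8 and Tet2 with 679 ± 32.7 (SD, n = 2). Sox2, which neural progenitors also use, had 862 ± 25.8. Gdf3, Dppa2, Nr0b1 and Utf1 were weaker, between 131 and 323. Sall4, Nr5a2, Tdgf1, Fgf4, Dppa4, Dppa5a, Fbxo15, Tcl1, Tdh and Spic had none, although an interval came within 1 kb of the TSS at Sall4, Tdgf1, Fgf4, Fbxo15 and Tdh.

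Of 6 genes of the formative or primed state, through which cells pass on leaving naive pluripotency, 5 had a TSS interval. These were Dnmt3b at 668 ± 48.8, Pou3f1 at 619 ± 3.07, Fgf5 at 538 ± 9.29, Foxd3 at 379 ± 18.2 and Otx2 at 128 ± 19.4 (SD, n = 2). Sall2 had none, although an interval came within 0.192 kb of its TSS. Pou3f1 and Foxd3 are also genes of the nervous system and neural crest. With none counted as 0, the median TSS density was 199 over the 10 genes, 0 over the 18 further pluripotency genes, 458 over the formative or primed genes, 946 over the progenitor genes and 402 over all protein-coding genes. The differences between these lists were not tested.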

How the data were processed

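Omni-ATAC-seq was performed on 2 replicate samples of 1 group. Per the study's methods, the authors processed reads with nf-core/atacseq 1.2.0 on mm10, calling peaks by MACS at an FDR of 1e-05 and keeping peaks of at least 2 replicates. The authors deposited raw fragment counts over the consensus intervals, made by featureCounts 2.0.1 (minimum overlap fraction 0.2, a fragment counted in each interval it overlaps). The interval set was called over 5 libraries. Its 3 other columns match none of the samples here and stayed out of every step. An interval absent here means that no consensus peak was kept, so a peak of 1 library alone would also be absent. An interval present here need not have been called as a peak in these 2 libraries. For example, that 349 kb upstream of Tbx3 held 3 and 2 counts. DESeq2 is named in the submitters' processing notes.

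Size factors came from DESeq2 1.42.0, and normalised counts were divided by interval length. The TSS was the 5' end of each protein-coding gene record in GENCODE, on the same assembly, and distance ran from the interval's nearest edge. Each interval was tested between the libraries by a two-sided exact binomial test with Benjamini-Hochberg adjustment over all intervals (limit 0.01). The test was checked on simulated counts with counting error alone, so the check does not cover the wider spread of the real libraries. With 1 group, no comparison of conditions was possible. Intervals from counts cover counting error only, since fragments carried no molecular identifiers. The log2 ratio used a pseudocount of 1. Motifs were searched in 300 bases around each interval's centre. Python 3.11.15, scipy 1.17.1 and edgeR 4.0.16 (TMM, as an alternative) were used.

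The genes, lists and motifs were chosen with earlier results of these data known. The OCT-SOX composite pattern was shortened by 2 bases after the longer form had found no interval of the 10 genes. The intervals named were those at or nearest the TSS, the densest of each locus, and the 3 with the largest log2 ratio among mean normalised counts over 100, with the neighbouring gene on either side. Further intervals were named after their values were seen.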

Additional observations from a re-analysis of the deposited data

How the results depend on the processing

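The values rest on 2 libraries and on which peaks were called, and no interval under the calling threshold can be seen. No paired analysis was possible because the labels give 1 group. Scaling by edgeR TMM or by total counts left all 0 calls between the libraries at the 146 intervals and moved no density by more than the SD of the libraries, although TMM gave 6 calls over the whole table where DESeq2 factors gave 0. With the TSSs of all annotated genes, noncoding ones included, the 10 genes kept 62 intervals in place of 146, with a median density of 97.0 in place of 110. Other choices of TSS gave 124 to 146 intervals, and the count of genes with a TSS interval was 7 under every alternative tried, including within 1 kb. Without division by length the median was 54.0 normalised counts per interval. A limit of 50 in place of 100 normalised counts put 51.4% of the intervals over it, and a limit of 200 put 16.4%, against 35.6%. Leaving out 1 library gave a median density of 106 to 113. For motifs, windows of 200 bases lowered CAGATG to 17.8% and CAGCTG to 17.1%. Intervals with mean normalised counts over 100 alone gave 19.2% for SOX, 11.5% for CTCF and 0% for ESRRB and for the composite. The longer composite with 2 further bases, searched before the pattern was shortened, gave 0%. Chosen after seeing the data, the starts of transcripts typed protein-coding gave 143 intervals, and leaving out the 5 intervals at another gene's transcript start gave a median density of 110.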
